A study of Mus musculus with 10 samples.

Results

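The 35 genes described here encode 6 lysosomal membrane proteins, 14 proteins of the lysosomal lumen and 15 subunits or partners of the vacuolar ATPase (V-ATPase). They were chosen by name, with no threshold on a measured value, and all 35 were found by symbol among the 45318 gene identifiers of the deposited tables. RNA was sequenced from bone marrow derived macrophages (BMDM), which are macrophages grown in culture from marrow, of C57BL/6 mice. The 10 libraries formed 5 groups of 2. Cells with the genotype Tlr4 -/- (KO) had received a Poly(I:C) pre-treatment (an artificial double-stranded RNA), had spent 6 h in a control medium with 5% fetal bovine serum (FBS) and 2% bovine serum albumin (BSA), or were untreated. WT cells had spent 6 h in that control medium or were untreated, and a WT group with Poly(I:C) was not analysed here. The labels give neither the length of the Poly(I:C) pre-treatment nor whether its medium held serum and albumin, and they give no medium for untreated cells, nor the age or sex of the mice. Nothing in them ties the 2 libraries of a group to different cultures or mice. The p-values therefore measure only the spread between these libraries, which may be technical.

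Lysosomes break down lipids, glycans and proteins with hydrolases that work in an acid lumen, and TLR4 is the receptor for bacterial lipopolysaccharide at the surface and in endosomes of macrophages. The acid is made by the V-ATPase, in which a cytosolic V1 part splits ATP and turns a stalk, and a membrane V0 part carries protons into the lumen. In macrophages the lysosome also takes apart engulfed particles and lipoproteins, and many of its genes can be switched on together by the factors TFEB and TFE3, which bind an E-box with the core CACGTG.

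Promoter stretches of 4 members are shown because they hold several CACGTG cores or an interferon response type motif (2 GAAA runs set 2 bases apart) and belong to genes followed below. RefSeq windows (GRCm38.p6) of 250 bases before and 50 bases after the gene start were at hand for 30 of the 35 members. Capitals mark CACGTG in Lamp1, Gla and Atp6v0b, and the GAAA pair, here read on the other strand, in Lamp1 and Atp6v1d. The stretches are Lamp1 at chr8:13159011-13159160 (+), Gla at chrX:134601186-134601245 (-), Atp6v0b at chr4:117887335-117887404 (-) and Atp6v1d at chr12:78861829-78861888 (-), each 5′ to 3′ along the gene.
Lamp1: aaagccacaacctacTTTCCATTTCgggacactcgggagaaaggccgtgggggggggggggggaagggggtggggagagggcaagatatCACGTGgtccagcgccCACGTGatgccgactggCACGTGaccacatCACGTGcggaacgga
Gla: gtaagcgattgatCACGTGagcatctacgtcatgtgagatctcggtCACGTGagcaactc
Atp6v0b: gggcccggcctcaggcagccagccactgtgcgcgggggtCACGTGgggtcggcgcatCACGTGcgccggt
Atp6v1d: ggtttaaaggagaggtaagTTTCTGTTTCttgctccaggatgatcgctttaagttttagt

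The core CACGTG stood in the windows of 10 of 30 members (33.3%) and of 8.09% of 27025 genes with a window. The longer TCACGTGA, which contains that core, stood in 5 members (16.7%) and in 1.12% of all genes. The 10 members with a core were Lamp1 with 4 sites, Mcoln1, Gla and Atp6v0b with 2 each, and Glb1, Gaa, Naglu, Atp6v0d1, Atp6v0e and Atp6v1a with 1 each. The GAAA pair stood in 2 members (6.67%), Lamp1 and Atp6v1d, and in 3.99% of all genes. Among 9 motifs searched on both strands, TGANTCA stood in 4 members (Cd68, Psap, Atp6v0a1 and Glb1, where it overlaps CACGTG; 13.3%, against 8.97% of all genes), GAGGAAGT in Gla and Gusb (3.69% of all genes) and GGGGAAGT in Psap (1.72%). CACGTG with GT before and AC after it stood in 0 members and 0.37% of all genes, and the NF-kB type motifs GGGA, 2 bases, TTCC and GGGA, 1 base, TTTCC in 0 members and in 1.63% and 0.466% of all genes. A match is a run of letters and not a bound site. The 10 members with a CACGTG core and the 20 without one had median log2 differences of -0.05 and -0.13 for WT control against WT untreated cells, and 0.12 and 0.19 for KO Poly(I:C) against KO control cells.

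The deposited values are a scaled signal, with library totals of 47451916 and 51679463 units in KO Poly(I:C) cells, 41950344 and 41102369 units in WT control cells, and 25218442 to 26688278 units in the other 6 libraries. Values are given below as CPM, a gene's signal as parts of a fixed library total, after scaling by the trimmed mean of M values (TMM), so that a change is read against the bulk of the genes. Scaling to totals alone moved the median log2 difference of all genes by about as much as many members changed. That median was then 0.50 for KO against WT control cells, -0.52 for WT control against WT untreated cells, and -0.76 for KO Poly(I:C) against KO control cells, where TMM gave 0.03, -0.01 and -0.06. The targeted gene Tlr4 was not lost under the KO label. It had 44.4 and 44.9 CPM in KO untreated cells and 60.1 and 69.1 CPM in WT untreated cells (log2 difference -0.53, SE 0.14, limma adjusted p = 0.346), so genotypes are given as labelled. The 8 macrophage markers summed to 22709 to 26845 CPM over the 10 libraries. The T and NK cell, B cell and mast cell lists each reached at most 1.18 CPM in a library, and Cd3e, Cd3g, Ncr1, Cpa3, Mcpt4, Tpsb2 and the dendritic cell gene Cd209a were at 0 in all of them.

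As a share of each library's total, the 35 genes took 1.82% and 1.91% in KO Poly(I:C) cells, 2.67% and 2.81% in KO control cells, 1.82% and 2.00% in WT control cells, 3.08% and 3.20% in KO untreated cells and 2.76% and 3.27% in WT untreated cells. Psap, the precursor of the saposins that present lipids to hydrolases, alone made up 0.732% to 1.71% of a library. Levels of different genes are compared per kilobase (kb) of exon. In WT untreated cells Psap had 3795 and 5246 CPM per kb, 5.15 times the mean of the next member, Grn, which encodes progranulin. Grn, Lamp1, Cd68 and Atp6v0c followed Psap in every group, but neighbours in that order were not always apart. Grn (797 and 804 CPM per kb) and Lamp1 (765 and 832) overlapped in KO untreated cells, and Cd68 and Atp6v0c overlapped in KO Poly(I:C) and WT control cells. Smpd1 and Atp6v0d2 were the lowest members, with 9.35 and 11.7 CPM per kb for Smpd1 and 2.31 and 3.86 CPM per kb for Atp6v0d2 in WT untreated cells. The values are sums over a whole gene. On GRCm38 (GENCODE M21) the genes that recur below lie as follows: Lamp2 (ENSMUSG00000016534) at chrX:38401357-38456454 (-), Lipa (ENSMUSG00000024781) at chr19:34492318-34527474 (-), Gla (ENSMUSG00000031266) at chrX:134588149-134601125 (-), Atp6v0a1 (ENSMUSG00000019302) at chr11:101009452-101063719 (+), Atp6v1d (ENSMUSG00000021114) at chr12:78840725-78861638 (-) and Atp6v1e1 (ENSMUSG00000019210) at chr6:120794305-120822793 (-). Over the 5 group means, 21 members stayed within 1.5-fold and 6 spanned 2-fold or more, which were Atp6v0d2 (2.82-fold), Lipa (2.75-fold), Atp6v1d (2.68-fold), Lamp2 (2.44-fold), Gla (2.35-fold) and Atp6v0b (2.11-fold).

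**Figure D1:**
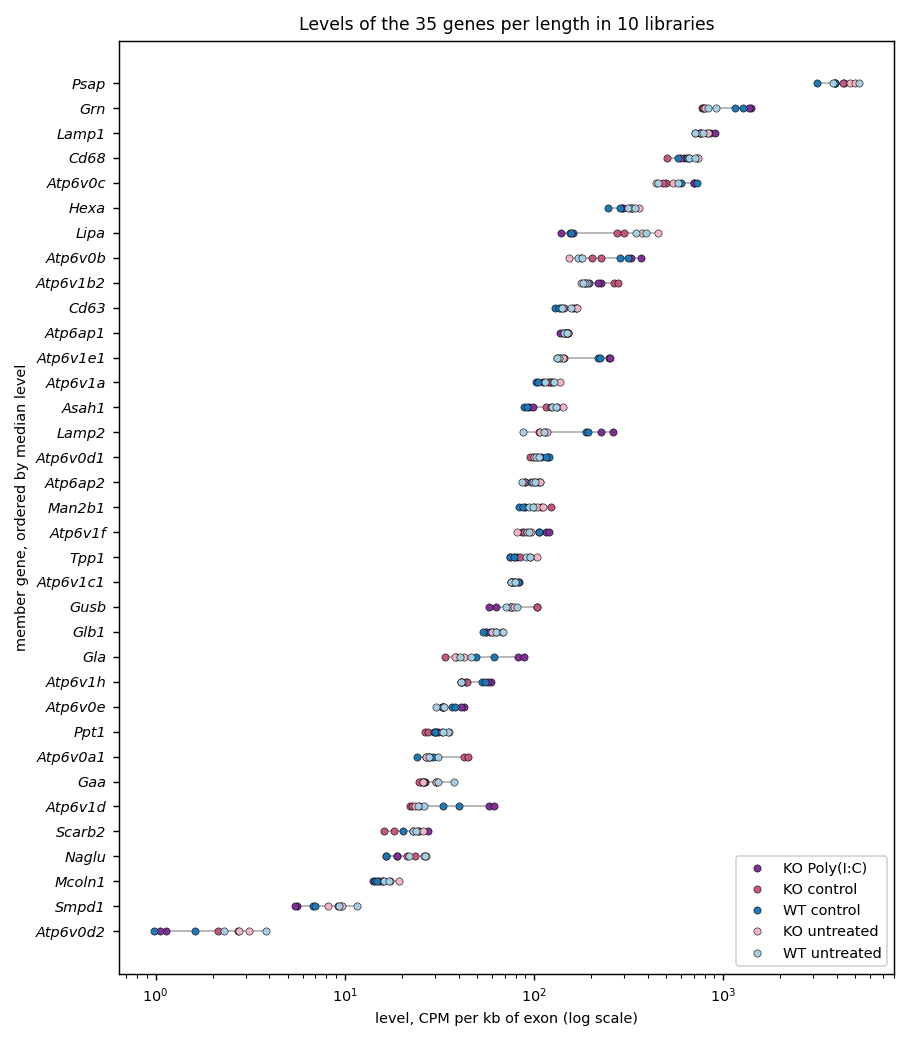
Level of each of the 35 genes in CPM per kb of exon (log axis) in the 10 libraries, ordered by median, with a line over the range and points coloured by group. Psap lies above all others, Atp6v0d2 and Smpd1 lie lowest, and Lipa, Lamp2, Gla, Atp6v1d and Atp6v0d2 have the widest ranges.

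In untreated macrophages no member passed the test between the genotype labels. Of the 35 genes, 0 were higher and 0 lower in KO untreated than in WT untreated cells (limma adjusted p under 0.05), where 0.0835% of all 13171 genes tested were called in each direction (0.167% in either). At an unadjusted p under 0.05 there were 2 members, Cd63 (log2 0.18, SE 0.07) and Gaa (log2 -0.29, SE 0.12), and 1146 of all 13171 genes. The authors' rlog table also gave 0 member calls. The largest difference of a member was that of Gaa, and the smallest adjusted p was 0.521, for Cd63. Gaa, which degrades glycogen, had 123 and 105 CPM in KO untreated cells and 126 and 154 CPM in WT untreated cells. The missing calls do not show that the genotypes were alike.

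**Figure D2:**
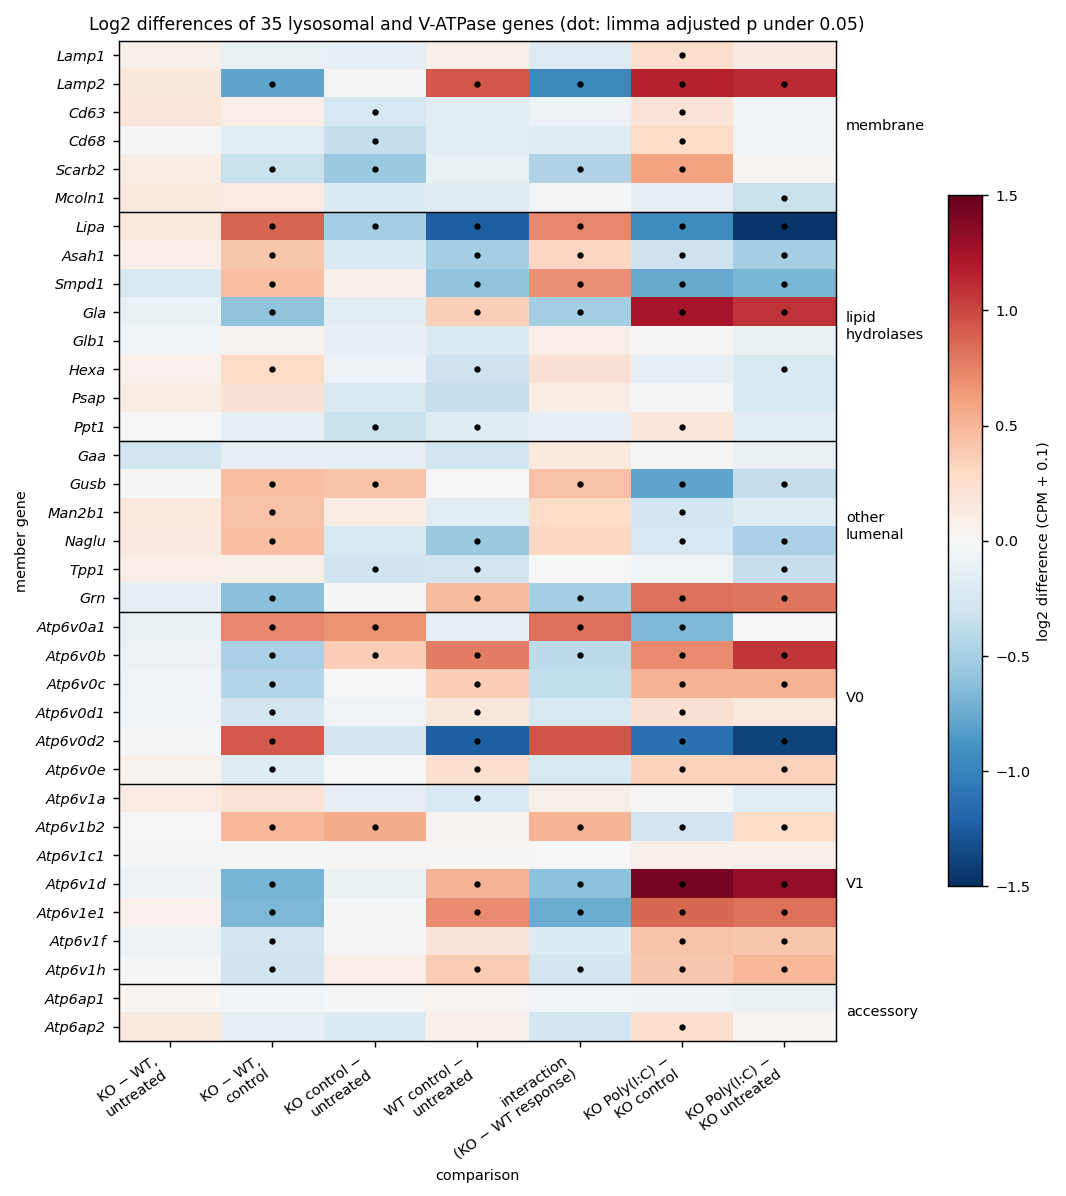
Log2 differences of the 35 genes on the log2(CPM + 0.1) scale in the 7 comparisons, with genes ordered by role and a dot where the limma adjusted p was under 0.05. The untreated genotype column holds 0 dots, and the columns of WT control against untreated and of KO Poly(I:C) against untreated share most of their colours.

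The control medium was followed by changes in both directions in WT cells, with 5 of 8 lipid-degrading genes lower and 7 of 15 V-ATPase genes higher. Lipa fell to 464 ± 5.13 CPM in WT control cells, against 1094 ± 90.0 CPM in WT untreated cells (SD, n = 2 each). Lamp2 rose to 960 ± 13.7 CPM, against 507 ± 89.4 CPM in WT untreated cells. Of the 35 genes, 10 were higher and 9 lower (limma adjusted p under 0.05), where 33.1% and 32.8% of all genes were called higher and lower (65.8% in either direction), so the share of members called was near that of all genes. The V-ATPase genes gave 7 higher and 2 lower of 15, the lumenal genes 2 higher and 7 lower of 14, and the membrane genes 1 higher and 0 lower of 6. Median log2 differences were 0.17 for the V-ATPase genes and -0.29 for the lumenal genes, against -0.01 for all genes, but with totals alone the V-ATPase median turned to -0.36. Under all of 4 scalings (TMM, totals alone, as deposited and median of ratios) 2 members stayed higher, Lamp2 and Atp6v1e1, and 5 stayed lower, Lipa, Asah1, Smpd1, Naglu and Atp6v0d2, where 17.2% and 26% of all genes did so. Fewer members were called lower without WT control 1, and fewer higher without WT control 2 or without WT untreated 1. Calls over all genes also became fewer there.

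In KO cells the same medium was followed by fewer calls. Of the 35 genes, 4 were higher and 6 lower in KO control than in KO untreated cells, where 10.9% and 9.08% of all genes were called (20% in either direction). The 4 higher were Gusb, Atp6v0a1, Atp6v0b and Atp6v1b2, and the 6 lower were Cd63, Cd68, Scarb2, Lipa, Ppt1 and Tpp1. Under all 4 scalings the 4 higher calls held, as did the lower calls of Scarb2, Lipa and Ppt1, where 8.33% and 7.9% of all genes held. Of these 10 calls, only those of Scarb2, Atp6v0a1 and Atp6v1b2 held whichever library was left out. Calls over all genes also became fewer when a library of these groups was left out. The 8 neutrophil markers summed to 4.90 and 5.91 CPM in KO control cells and to 8.82 and 10.7 CPM in KO untreated cells, and their part in these calls was not tested. A direct test of the difference between the responses (KO response minus WT response) called 6 members positive and 8 negative, where 22% and 23.7% of all genes were called (45.7% in either direction). Its medians were -0.24 for the 15 V-ATPase genes and 0.19 for the 14 lumenal genes (0.04 for all genes), but the V-ATPase median turned to 0.26 with totals alone. The negative calls of members became fewer without KO control 1 or without WT control 2, as did those of all genes. Under all 4 scalings the positive calls of Lipa, Smpd1, Atp6v0a1 and Atp6v1b2 and the negative calls of Lamp2 and Atp6v1e1 held. Of all genes, 15.6% held a positive and 12.9% a negative call under all 4.

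Set side by side after the medium, KO control cells had more transcript of several lumenal enzymes and less of Lamp2 and of several V-ATPase subunits than WT control cells. Of the 35 genes, 10 were higher and 12 lower, where 30.9% and 30.2% of all genes were called (61.1% in either direction). The lumenal genes gave 7 higher and 2 lower of 14, the V-ATPase genes 3 higher and 8 lower of 15, and the membrane genes 0 higher and 2 lower of 6. Under all 4 scalings 8 stayed higher (Lipa, Asah1, Gusb, Man2b1, Naglu, Atp6v0a1, Atp6v0d2 and Atp6v1b2; 22.5% of all genes) and 3 stayed lower (Lamp2, Atp6v1d and Atp6v1e1; 15.8%). With totals alone the counts were 26 higher and 3 lower (V-ATPase genes 10 and 2), and 7672 higher and 2077 lower among all genes, so the balance of directions rests on the scaling. In bulk samples, fewer cells of a type and less RNA per cell cannot be told apart. Low-level lists moved with these groups: the 8 neutrophil markers summed to 4.90 and 5.91 CPM in KO control cells and to 14.0 and 22.0 CPM in WT control cells, and the 4 stromal markers to 3.73 and 4.96 CPM in KO control cells and to 12.1 and 15.1 CPM in WT control cells. The 6 dendritic markers summed to 0.561 and 0.584 CPM in KO control cells and to 2.51 and 2.96 CPM in WT control cells. In WT untreated cells these sums were 7.39 and 12.4, 3.07 and 5.33, and 0.496 and 0.626 CPM for the neutrophil, stromal and dendritic lists. Few genes carried the highest values in these lists. Pdgfrb reached 10.2 CPM in a library, against at most 2.85 CPM for Col1a2, 1.92 CPM for Col1a1 and 0.478 CPM for Dcn. Ccr7 and Dpp4 reached 1.82 and 1.35 CPM, and Flt3, Xcr1 and Zbtb46 at most 0.491 CPM. Among neutrophil markers Ngp reached 10.9 CPM and the next, Camp, 3.29 CPM. The sums are thus not a measure of cells, and their part in the changes was not tested.

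Among membrane proteins Lamp2, a glycoprotein of the lysosomal membrane and a receptor in chaperone-mediated autophagy, moved most. It had 537 and 575 CPM in KO control cells, 951 and 970 CPM in WT control cells, 545 and 590 CPM in KO untreated cells and 444 and 570 CPM in WT untreated cells. The WT control libraries lay above all the others here, and the remaining 3 groups overlapped or lay close. Lamp2 was higher by 0.93 (SE 0.12, limma adjusted p = 6.08e-05) in WT control than in WT untreated cells, and its difference was -0.03 in KO cells. KO control cells were lower than WT control cells by a log2 difference of -0.79 (SE 0.12, limma adjusted p = 0.000233). The test of the 2 responses gave -0.96 (SE 0.17, limma adjusted p = 0.00109).

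Scarb2, which carries the glucocerebrosidase to lysosomes, had 75.8 and 85.2 CPM in KO control cells, 95.8 and 108 CPM in WT control cells, 115 and 123 CPM in KO untreated cells and 108 and 111 CPM in WT untreated cells. It fell in KO cells given the medium (log2 -0.56, SE 0.09, limma adjusted p = 0.00253). Its libraries did not overlap there, as was so for 63.2% of all genes. In WT cells its difference was -0.11 (SE 0.09, limma adjusted p = 0.303), or -0.64 with totals alone. The response difference of -0.45 turned to 0.05 with totals alone. It missed the threshold without KO control 1 (limma adjusted p = 0.0731), WT control 2 (0.0639) or KO untreated 2 (0.059). The tetraspanin Cd63 and the macrophage sialomucin Cd68 were called lower in KO control than in KO untreated cells by -0.25 and -0.35. Their calls were lost without KO control 1, with differences of -0.21 for Cd63 (limma adjusted p = 0.19) and -0.24 for Cd68 (0.289), and also without KO control 2, KO untreated 1 or KO untreated 2 for Cd63 and without either KO untreated library or any of the WT libraries for Cd68. Lamp1, with 1584 to 1853 CPM in these 8 libraries, and the cation channel gene Mcoln1, with 29.7 to 40.0 CPM, were not called between the genotypes or for the control medium.

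Of the lipid-degrading group, Lipa changed most. It encodes lysosomal acid lipase, which frees cholesterol and fatty acids from lipoprotein lipids. Lipa had 821 and 886 CPM in KO control cells, 461 and 468 CPM in WT control cells, 1110 and 1345 CPM in KO untreated cells and 1031 and 1158 CPM in WT untreated cells. Both control groups lay below their untreated cells. The log2 differences were -0.52 in KO cells (SE 0.11, limma adjusted p = 0.00908) and -1.23 in WT cells (SE 0.11, limma adjusted p = 4.59e-06), and the responses differed by 0.72 (SE 0.15, limma adjusted p = 0.00376). The fall in KO cells missed the threshold without KO control 1 (log2 -0.46, limma adjusted p = 0.0709) or KO untreated 2 (log2 -0.38, limma adjusted p = 0.0724).

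Smpd1, the acid sphingomyelinase, had 22.3 and 23.1 CPM in KO control cells, 16.4 and 16.8 CPM in WT control cells, 23.4 and 19.7 CPM in KO untreated cells and 22.6 and 28.1 CPM in WT untreated cells. The WT control pair lay below every other library of these groups. Smpd1 fell in WT cells by -0.60 (SE 0.12, limma adjusted p = 0.00162), its difference in KO cells was 0.08, and the responses differed by 0.68 (SE 0.17, limma adjusted p = 0.00953). The acid ceramidase gene Asah1 had 322 and 341 CPM in KO control cells and 245 and 254 CPM in WT control cells (log2 0.41, SE 0.07, limma adjusted p = 0.000551). Its libraries did not overlap between these groups, as was so for 82.1% of all genes. Its fall in WT cells was -0.51 (SE 0.07, limma adjusted p = 0.000106). Its response difference of 0.31 missed the threshold with the deposited or median-of-ratios scaling and without KO control 2 (0.26, limma adjusted p = 0.112), WT control 1 (0.0778), KO untreated 1 (0.093) or WT untreated 2 (0.0598).

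Gla, the alpha-galactosidase that clears globotriaosylceramide, went against its group. It had 108 and 123 CPM in KO control cells and 157 and 196 CPM in WT control cells, against 122 and 135 CPM in KO untreated cells and 128 and 147 CPM in WT untreated cells. Gla was lower in KO control than in WT control cells (log2 -0.60, SE 0.12, limma adjusted p = 0.00138), but by only -0.12 with totals alone. Its rise in WT cells (log2 0.35) turned to -0.18 with totals alone, and was 0.20 without WT control 2 (limma adjusted p = 0.202) and 0.25 without WT untreated 1 (0.142). Hexa, the alpha subunit of beta-hexosaminidase, fell in WT cells (log2 -0.31, SE 0.08, limma adjusted p = 0.00866), a call lost without WT control 1 (-0.21, limma adjusted p = 0.0828) or WT untreated 2 (-0.24, 0.0525). The thioesterase gene Ppt1 was called lower in both genotypes (-0.33 in KO and -0.19 in WT cells). The call in KO cells was lost without KO control 1 (limma adjusted p = 0.0754) or KO untreated 2 (0.084), and that in WT cells without WT control 1 (0.133), WT control 2 (0.0859), WT untreated 1 (0.17) or KO control 1 (0.0604). Glb1, the acid beta-galactosidase, and Psap were called in none of the 7 comparisons. Psap ranged from 8590 to 14396 CPM over these 8 libraries, and the widest pair was in WT untreated cells, at 10413 and 14396 CPM.

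Of the other lumenal proteins, Gusb, the beta-glucuronidase, had 390 and 393 CPM in KO control cells, above 290 and 282 CPM in WT control cells, 286 and 295 CPM in KO untreated cells and 306 and 269 CPM in WT untreated cells. Among these groups KO control alone stood away from the rest. KO Poly(I:C) cells, at 217 to 237 CPM of Gusb, were called lower than KO untreated cells (log2 -0.36), a call lost with the deposited scaling. Gusb rose in KO cells given the medium (log2 0.43, SE 0.08, limma adjusted p = 0.00429), a call lost without KO control 2 (0.40, limma adjusted p = 0.0531), and its difference in WT cells was -0.01, or -0.54 with totals alone. Naglu, which trims heparan sulfate, had 54.9 and 60.2 CPM in KO control cells and 42.2 and 42.1 CPM in WT control cells. It fell in WT cells by -0.55 (SE 0.09, limma adjusted p = 0.000477). The alpha-mannosidase gene Man2b1 had 418 and 469 CPM in KO control cells and 318 and 335 CPM in WT control cells (log2 0.44, SE 0.08, limma adjusted p = 0.00117). The response differences of Naglu (0.31) and Man2b1 (0.28) did not pass the test.

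Grn encodes progranulin, a secreted and lysosomal protein that is cut into granulins. It had 1823 and 1844 CPM in KO control cells, 2695 and 2995 CPM in WT control cells, 1865 and 1881 CPM in KO untreated cells and 1960 and 2150 CPM in WT untreated cells. The WT control libraries were the highest of these 8. Grn was higher in WT control than in WT untreated cells (log2 0.47, SE 0.08, limma adjusted p = 0.000718), but -0.06 with totals alone. The peptidase gene Tpp1 was called lower by -0.29 in each genotype, calls that were lost without KO control 1 in KO cells (-0.24, limma adjusted p = 0.176; 0.0509 without KO control 2 and 0.164 without KO untreated 2) and without WT control 1 in WT cells (-0.25, 0.0556). Gaa was called in none of the 7 comparisons.

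**Figure D3:**
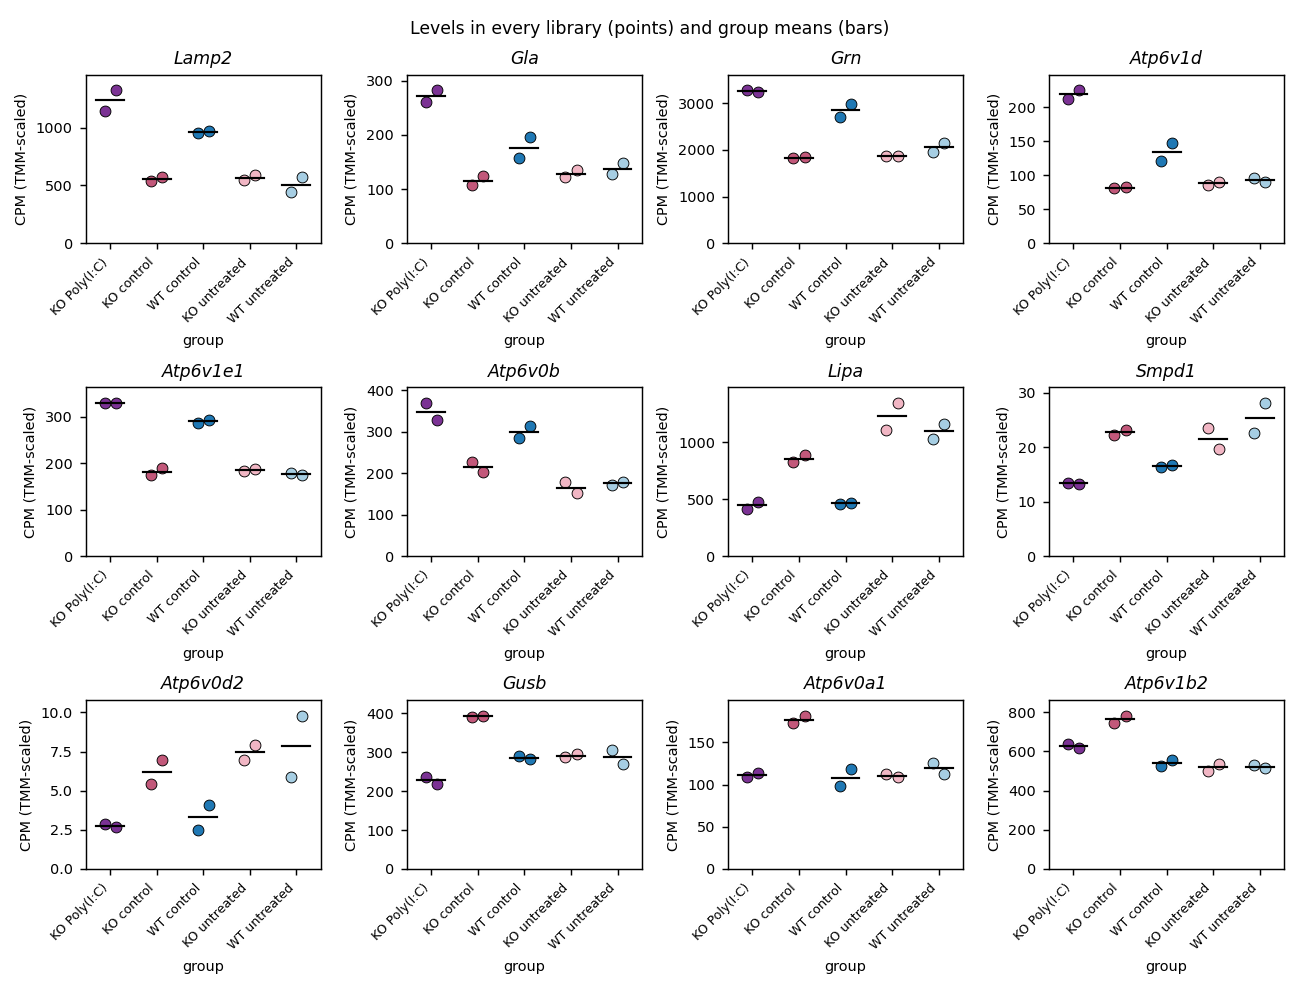
CPM (TMM-scaled) of 12 members in every library (points) with group means (bars), on axes that start at 0. Lamp2, Gla, Grn, Atp6v1d, Atp6v1e1 and Atp6v0b were highest in KO Poly(I:C) and WT control cells, Lipa, Smpd1 and Atp6v0d2 lowest there, and Gusb, Atp6v0a1 and Atp6v1b2 highest in KO control cells.

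The V0 part holds the a, b, c, d and e subunits, and Atp6v0a1 encodes one of several a isoforms that anchor the complex to a membrane. Atp6v0a1 had 172 and 182 CPM in KO control cells, 98.1 and 118 CPM in WT control cells, 112 and 109 CPM in KO untreated cells and 125 and 113 CPM in WT untreated cells. KO control cells lay above all the others. It rose in KO cells given the medium (log2 0.68, SE 0.09, limma adjusted p = 0.00115), its difference in WT cells was -0.14 (SE 0.09, or -0.68 with totals alone), and the responses differed by 0.82 (SE 0.13, limma adjusted p = 0.000728). The proteolipid gene Atp6v0b, which lines the proton path, had 226 and 202 CPM in KO control cells, 285 and 314 CPM in WT control cells, 178 and 153 CPM in KO untreated cells and 172 and 179 CPM in WT untreated cells. Both control groups lay above their untreated cells. The rise was 0.37 in KO cells (SE 0.10, limma adjusted p = 0.0257), lost without KO control 1, KO control 2 or KO untreated 2 (limma adjusted p = 0.169, 0.0688 and 0.179). In WT cells it was 0.77 (SE 0.10, limma adjusted p = 7.20e-05), or 0.24 with totals alone (limma adjusted p = 0.058).

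The isoform genes of subunit d moved apart. Atp6v0d2, known from osteoclasts and some macrophages, had 5.42 and 6.94 CPM in KO control cells, 2.49 and 4.09 CPM in WT control cells, 6.97 and 7.94 CPM in KO untreated cells and 5.86 and 9.79 CPM in WT untreated cells. Its level was low and its pairs were wide, yet the WT control pair lay below the other libraries of these groups. Atp6v0d2 fell in WT cells by -1.22 (SE 0.27, limma adjusted p = 0.00288). It was higher in KO control than in WT control cells by 0.92 (SE 0.27, limma adjusted p = 0.0149), a call lost without KO control 2 (0.74, limma adjusted p = 0.0977) or WT control 1 (0.57, limma adjusted p = 0.127). The 8 osteoclast markers summed to 218.3 and 231.5 CPM in KO control cells and 228.7 and 293.8 CPM in WT control cells. Among them, the highest value in any library was 192 CPM for Mmp9, 99.98 CPM for Acp5, 43.5 CPM for Nfatc1 and 3.52 CPM for Ctsk. Calcr, Ocstamp, Dcstamp and Oscar reached at most 0.231 CPM in any library. The ubiquitous Atp6v0d1 and the subunit genes Atp6v0c and Atp6v0e were called higher in WT control than in WT untreated cells by 0.17, 0.37 and 0.24, and these turned to -0.36, -0.17 and -0.29 with totals alone. Each of the 3 calls was lost without WT control 2 (limma adjusted p = 0.0761 for Atp6v0d1, 0.23 for Atp6v0c and 0.0594 for Atp6v0e) and without WT untreated 1 (0.141, 0.247 and 0.0673).

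In the V1 part, Atp6v1e1, of the stalk that holds the ATP-splitting head in place, had 174 and 190 CPM in KO control cells, 287 and 293 CPM in WT control cells, 182 and 188 CPM in KO untreated cells and 179 and 174 CPM in WT untreated cells. The WT control libraries stood above a narrow band formed by the other 6. Atp6v1e1 rose in WT cells (log2 0.71, SE 0.07, limma adjusted p = 6.49e-06), its difference in KO cells was -0.03, and the responses differed by -0.74 (SE 0.09, limma adjusted p = 0.000139). Atp6v1d, of the central stalk that turns, had 81.1 and 82.9 CPM in KO control cells, 121 and 147 CPM in WT control cells, 86.3 and 90.1 CPM in KO untreated cells and 96.7 and 90.0 CPM in WT untreated cells. It was lower in KO control than in WT control cells by -0.70 (SE 0.09, limma adjusted p = 0.000112). Its rise in WT cells of 0.51 turned to -0.02 with totals alone.

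Atp6v1b2, which with Atp6v1a forms the ATP-splitting head, took the opposite course. It had 747 and 782 CPM in KO control cells, 524 and 555 CPM in WT control cells, 502 and 538 CPM in KO untreated cells and 528 and 515 CPM in WT untreated cells. Among these groups KO control cells alone lay apart (log2 0.56 against KO untreated cells, SE 0.07, limma adjusted p = 0.000645), and the responses differed by 0.51 (SE 0.10, limma adjusted p = 0.00212). In WT cells its difference was 0.05, or -0.48 with totals alone. KO Poly(I:C) cells, at 616 to 638 CPM, were also called higher than KO untreated cells for Atp6v1b2 (log2 0.27, or -0.48 with totals alone). Atp6v1h, a regulatory subunit, and Atp6v1f, of the central stalk, were lower in KO control than in WT control cells by -0.29 and -0.28, which turned to 0.19 and 0.20 with totals alone. The call of Atp6v1f was also lost without KO control 1 (limma adjusted p = 0.073) or WT control 2 (0.0531). Atp6v1a was called in WT control against WT untreated cells alone (log2 -0.23), a call lost without WT control 1 (limma adjusted p = 0.13), WT control 2 (0.0753), WT untreated 2 (0.188) or KO control 1 (0.0528). Atp6v1c1, at 156 to 171 CPM, and the accessory gene Atp6ap1, at 326 to 344 CPM in these 8 libraries, were called in none of the 7 comparisons, and the accessory gene Atp6ap2 in none of those above.

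Poly(I:C) medium was followed in KO cells by higher Lamp2, Gla and Atp6v1d and lower Lipa, Smpd1, Gusb, Atp6v0a1 and Atp6v0d2 than the control medium. Of the 35 genes, 17 were higher and 9 lower in KO Poly(I:C) than in KO control cells, where 32.5% and 36.9% of all genes were called (69.4% in either direction). The V-ATPase genes gave 9 higher and 3 lower of 15, the lumenal genes 3 higher and 6 lower of 14, and the membrane genes 5 higher and 0 lower of 6. Median log2 differences were 0.25 for the V-ATPase genes and 0.28 for the membrane genes against -0.06 for all genes, but -0.47 and -0.43 with totals alone. The 8 genes named in the opening sentence kept their calls under all 4 scalings, where 15.8% and 28.5% of all genes kept a higher and a lower call. These libraries are compared here with the same KO control libraries as above, so the comparisons are not independent. Beside them, the 8 neutrophil markers summed to 17.5 and 20.04 CPM in KO Poly(I:C) cells and to 4.90 and 5.91 CPM in KO control cells, and the 6 dendritic markers to 2.29 and 2.89 CPM in KO Poly(I:C) cells and to 0.561 and 0.584 CPM in KO control cells. The 4 stromal markers summed to 6.65 and 9.05 CPM in KO Poly(I:C) cells and to 3.73 and 4.96 CPM in KO control cells, and the 4 mast cell markers, of which Kit alone was above 0, to 0.935 and 1.18 CPM and to 0.0991 and 0.13 CPM in the same groups. Their part in the result was not tested.

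Atp6v1d, whose log2 difference was the largest of the 35 between these groups, had 213 and 226 CPM in KO Poly(I:C) cells, against 81.1 and 82.9 CPM in KO control cells (log2 1.42, SE 0.09, limma adjusted p = 4.64e-07), and 0.70 with totals alone. Gla had 260 and 283 CPM in KO Poly(I:C) cells and 108 and 123 CPM in KO control cells (log2 1.23, SE 0.12, limma adjusted p = 7.01e-06). Lamp2 had 1145 and 1326 CPM in KO Poly(I:C) cells and 537 and 575 CPM in KO control cells (log2 1.15, SE 0.12, limma adjusted p = 1.15e-05). All 3 pairs of libraries lay clear of the control pairs, and 85% of all genes did not overlap between these groups.

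Lipa had 415 and 477 CPM in KO Poly(I:C) cells, against 821 and 886 CPM in KO control cells (log2 -0.94, SE 0.11, limma adjusted p = 2.80e-05). Gusb had 237 and 217 CPM in KO Poly(I:C) cells, against 390 and 393 CPM in KO control cells (log2 -0.79, SE 0.08, limma adjusted p = 8.61e-06). Smpd1, at 13.5 and 13.2 CPM in KO Poly(I:C) cells, fell by 0.76 (SE 0.12, limma adjusted p = 0.000308). Here too the libraries did not overlap, as was so for 85% of all genes in this comparison. Atp6v0d2 was at 2.88 and 2.67 CPM in KO Poly(I:C) cells (log2 -1.12, SE 0.27, limma adjusted p = 0.00444) and Atp6v0a1 at 108 and 114 CPM (log2 -0.67, SE 0.09, limma adjusted p = 0.000113).

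Other calls in this comparison depended more on the scaling. Atp6v1e1 (328 and 330 CPM in KO Poly(I:C) cells; log2 0.86) and Grn (3287 and 3231 CPM; log2 0.83) kept their direction with totals alone, at 0.14 and 0.11, but not their calls. Atp6v0b (0.70), Scarb2 (0.61), Atp6v0c (0.52), Atp6v1f (0.43), Atp6v1h (0.41), Atp6v0e (0.34), Cd68 (0.30), Lamp1 (0.26), Atp6ap2 (0.25), Atp6v0d1 (0.22), Cd63 (0.21) and Ppt1 (0.18) were called higher, and all 12 were negative with totals alone, from -0.54 to -0.01. Of these 12, the calls of Cd68, Lamp1, Atp6ap2, Atp6v0d1, Cd63 and Ppt1 were each lost without a single library. Without KO control 1 the limma adjusted p was 0.24 for Cd68, 0.138 for Lamp1, 0.0782 for Atp6ap2, 0.138 for Cd63 and 0.187 for Ppt1, and without KO Poly(I:C) 1 it was 0.0915 for Atp6v0d1. The 4 lower calls not yet named were those of Asah1 (-0.30), Man2b1 (-0.29), Atp6v1b2 (-0.28) and Naglu (-0.25), which were all lost with the deposited scaling. Those of Man2b1 and Naglu were also lost without KO Poly(I:C) 1 (limma adjusted p = 0.0842 and 0.111) or KO control 2 (0.102 and 0.227).

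Against untreated cells, KO Poly(I:C) cells had 11 members higher and 9 lower, where 34.5% and 37.6% of all genes were called (72.1% in either direction). The V-ATPase genes gave 8 higher and 1 lower of 15, and the lumenal genes 2 higher and 7 lower of 14. With totals alone the V-ATPase genes gave 2 higher and 11 lower, and their median of 0.27 turned to -0.48. Marker sums in KO Poly(I:C) cells, given above, stood against 8.82 and 10.7 CPM for the neutrophil, 2.81 and 2.95 CPM for the stromal and 0.746 and 0.818 CPM for the dendritic list in KO untreated cells, and their part was not tested. Under all 4 scalings Lamp2 (log2 1.12, SE 0.12), Gla (1.08, SE 0.12), Atp6v0b (1.08, SE 0.10) and Atp6v1d (1.31, SE 0.09) stayed higher, and Lipa (-1.46, SE 0.11), Asah1 (-0.51, SE 0.07), Smpd1 (-0.68, SE 0.12), Naglu (-0.49, SE 0.09) and Atp6v0d2 (-1.39, SE 0.27) stayed lower. Of all genes, 16.8% stayed higher and 30.3% lower under all 4. Mcoln1, which had 29.0 and 31.2 CPM in KO Poly(I:C) cells and 35.7 and 40.0 CPM in KO untreated cells, received its one call here (log2 -0.33, SE 0.09, limma adjusted p = 0.00595), lost without KO untreated 2 (-0.25, limma adjusted p = 0.0598). Atp6v0a1 was at the untreated level on the TMM scale (log2 0.01, SE 0.09), or -0.75 with totals alone.

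This comparison shares no library with that of WT control and WT untreated cells. Of the 11 members called higher in KO Poly(I:C) cells, 9 were also called higher in WT control cells (81.8% of the 11 and 90% of the 10), and of the 9 called lower, 7 were also called lower there (77.8% of each list). All genes overlapped about as much, with 84.5% of the higher calls in KO Poly(I:C) cells and 88.1% of those in WT control cells shared, and 79.9% and 91.7% of the lower calls. The shared higher members were Lamp2, Gla, Grn, Atp6v0b, Atp6v0c, Atp6v0e, Atp6v1d, Atp6v1e1 and Atp6v1h, and the shared lower ones Lipa, Asah1, Smpd1, Hexa, Naglu, Tpp1 and Atp6v0d2. In KO Poly(I:C) against KO untreated cells the call of Hexa was lost without KO Poly(I:C) 1 (limma adjusted p = 0.108), KO Poly(I:C) 2 (0.0783) or KO untreated 2 (0.165) and with the deposited or median-of-ratios scaling, and that of Atp6v0c without KO untreated 2 (0.0528) and with totals alone. Between the responses to the control medium, which share no library either, 1 higher call was common to KO (of 4) and WT cells (of 10), that of Atp6v0b, and 3 lower calls were common to KO (of 6) and WT cells (of 9), those of Lipa, Ppt1 and Tpp1. That is 25% of the higher and 50% of the lower calls in KO cells, against 74.6% and 65.1% for all genes. Of the calls in WT cells it is 10% of the higher and 33.3% of the lower, against 24.6% and 18.1% for all genes. On so few calls the members cannot be set apart from all genes.

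**Figure D4:**
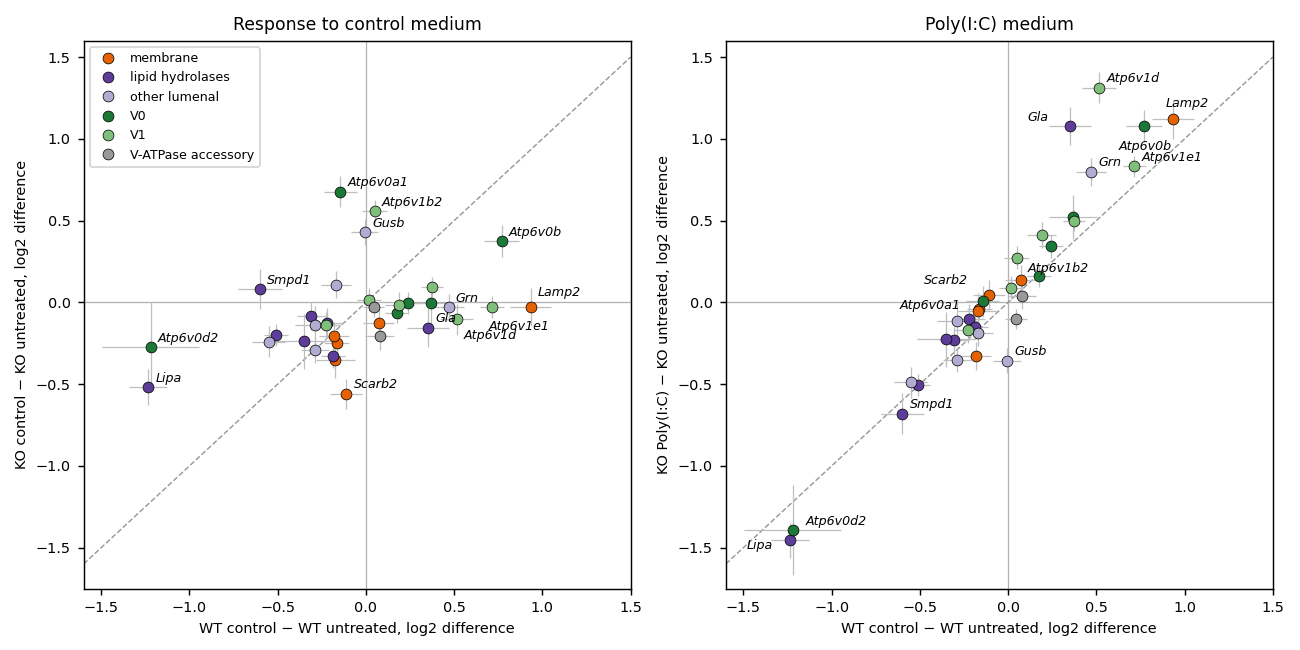
Log2 difference of each member in KO control (left) or KO Poly(I:C) (right) against KO untreated cells on the y axis, and in WT control against WT untreated cells on the x axis, with SE as bars, colours by role and the line of equal change dashed. On the left most members lie near 0 on the y axis, with Atp6v0a1, Atp6v1b2 and Gusb above 0 and Lipa and Scarb2 below it, and on the right most members lie near the dashed line.

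Ratios of 2 genes within a library do not depend on the scaling. The level per kb of Atp6v0a1 relative to Tcirg1, which encodes the a3 isoform of late endosomes and lysosomes, was 0.116 and 0.129 in KO Poly(I:C) cells, 0.568 and 0.624 in KO control cells, 0.147 and 0.157 in WT control cells, 0.315 and 0.350 in KO untreated cells and 0.389 and 0.326 in WT untreated cells. KO control cells had the highest ratio, KO Poly(I:C) and WT control cells the lowest, and the untreated genotypes overlapped. Tcirg1 itself was lower in KO control than in WT control cells (243 ± 7.07 CPM and 581 ± 47.6 CPM; log2 -1.25, SE 0.09, limma adjusted p = 1.01e-06). For each 100 units of Atp6v0d1 there were 0.959 and 0.958 units of Atp6v0d2 in KO Poly(I:C) cells, 2.15 and 2.85 in KO control cells, 0.818 and 1.39 in WT control cells, 2.65 and 3.12 in KO untreated cells and 2.25 and 3.62 in WT untreated cells.

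The next pairs were chosen after their values were seen and are given as a description. Atp6v1d relative to Atp6v1b2 was 0.257 and 0.282 in KO Poly(I:C) cells, 0.0837 and 0.0817 in KO control cells, 0.177 and 0.204 in WT control cells, 0.132 and 0.129 in KO untreated cells and 0.141 and 0.135 in WT untreated cells. Here KO control cells lay below untreated cells, and WT control and KO Poly(I:C) cells above them. Lipa relative to Lamp2 was 0.615 and 0.611 in KO Poly(I:C) cells, 2.60 and 2.62 in KO control cells, 0.822 and 0.819 in WT control cells, 3.45 and 3.87 in KO untreated cells and 3.94 and 3.45 in WT untreated cells. The summed lumenal genes without Psap stood at 1.39 and 1.43 times the summed V-ATPase genes in KO Poly(I:C) cells, 1.41 and 1.46 in KO control cells, 1.40 and 1.42 in WT control cells, 1.61 and 1.76 in KO untreated cells and 1.67 and 1.68 in WT untreated cells. Such sums weigh high genes most. Grn, the highest in this lumenal sum, had mean CPM of 1833 in KO control and 2845 in WT control cells. Between these groups 7 of 14 lumenal genes were called higher in KO cells and 2, with Grn among them, lower.

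**Figure D5:**
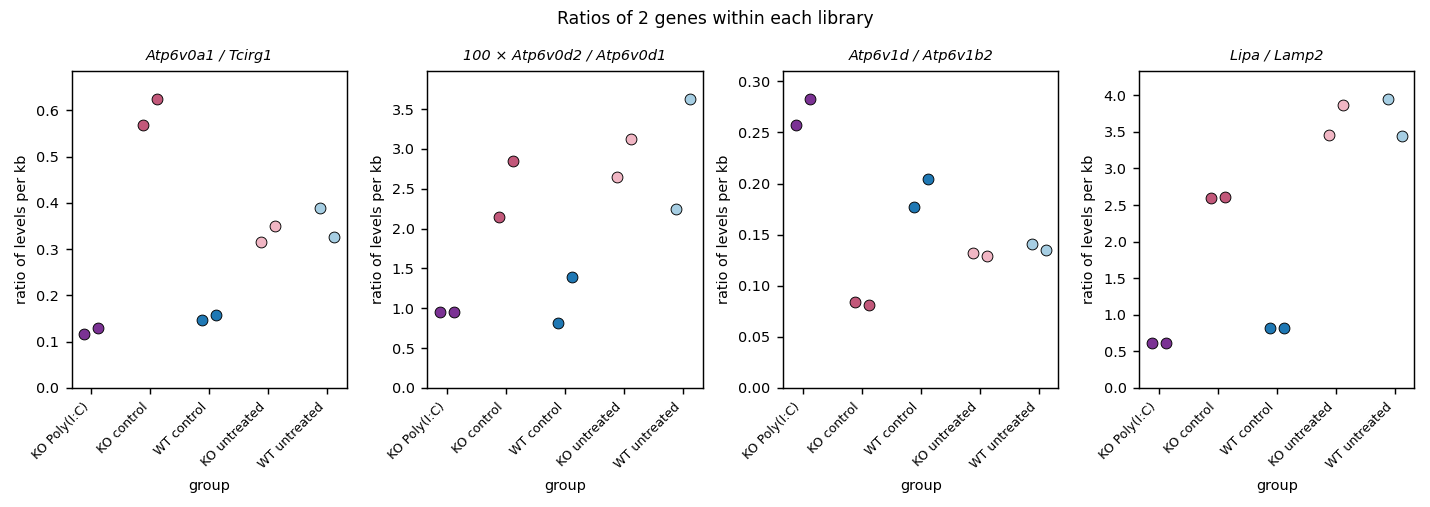
Ratios of levels per kb within each library for 4 gene pairs (points are libraries, y axes start at 0). Atp6v0a1 over Tcirg1 was highest in KO control cells at 0.568 and 0.624, while Lipa over Lamp2 fell to 0.615 and 0.611 in KO Poly(I:C) cells, against 3.45 to 3.94 in untreated cells.

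Of 96 further lysosomal genes (other hydrolases, membrane proteins, V-ATPase subunits, sorting and positioning factors), 90 were tested. They gave 0 calls between untreated KO and WT cells, 32 higher and 27 lower in KO control than in WT control cells, and 28 higher and 39 lower in WT control than in WT untreated cells. In KO cells the control medium gave 7 higher and 13 lower, and Poly(I:C) against the control medium 30 higher and 31 lower. The shares called, in the order of these last 4 comparisons, were 65.6%, 74.4%, 22.2% and 67.8%, against 61.1%, 65.8%, 20% and 69.4% of all genes. Sgsh, which acts on heparan sulfate like Naglu, had 44.5 ± 0.163 CPM in KO control cells and 8.15 ± 0.769 CPM in WT control cells (log2 2.44, SE 0.11, limma adjusted p = 5.38e-08). Slc15a3, a lysosomal peptide and histidine transporter, had 416 ± 24.6 CPM in KO control cells and 1852 ± 92.9 CPM in WT control cells (log2 -2.15, SE 0.10). The endolysosomal channel gene Tpcn1 (log2 2.06, SE 0.08) and the phospholipase gene Pla2g15 (1.59, SE 0.10) were higher in KO control cells. In KO Poly(I:C) against KO control cells the log2 differences were -3.14 for Sgsh, 2.31 for Slc15a3, -2.54 for Tpcn1 and -1.81 for the sorting adaptor Gga2.

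Some members share sequence or exons with other genes. The copies Atp6v0c-ps2 and Cd63-ps reached at most 1.15 and 0.595 CPM. On the annotation (GENCODE M21, GRCm38) exons of Glb1 overlap those of Tmppe on the same strand, and exons of Lamp1, Ppt1, Atp6v0b and Atp6v1h overlap those of Grtp1, Cap1, Gm12841 and Rgs20 on the opposite strand. The kit marks strand, but no source used here gives the counting setting, so a share of those reads is uncertain.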

How the data were processed

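The deposited signal per gene is a whole number that the authors had scaled before deposit, as the values show. The 75th percentile over all identifiers is 25 in all 10 libraries, and low whole numbers are skipped in some of them. Of the numbers 1 to 20, 10 were never used in KO Poly(I:C) 2, and 0 were unused in KO control 1. The signal was not treated as counts. The authors also deposited a log2 table (rlog values). Per the submitters' processing notes the tools included RSEM 1.2.12, STAR 2.4.0d, DESeq2 and Trim Galore 0.2.8, with no role given. No source used here names the genome build. Of 45318 identifiers, 44585 matched a symbol in GENCODE M21. Values were scaled by TMM (30% and 5% trimmed from M and A) and tested as log2(CPM + 0.1) with limma 3.58.1 in R 4.3.3, with a trend and 1 coefficient per group over all 10 libraries. Genes needed a value of 10 in 2 libraries (13171 genes), and p-values were Benjamini-Hochberg adjusted over all of them. A call is an adjusted p under 0.05. Fold changes on this scale understate those of low genes. All 35 genes and Tlr4 are named, and of the further genes at most 4 called per comparison, those with the largest changes. Tcirg1 serves as the partner in a ratio and was named outside that rule. Members, lists and tests were chosen with earlier results of these data known. The 18 alternatives were 3 other scalings, a pseudocount of 1, no filter, the rlog table, the compared groups alone, a replicate block and leaving out each of 10 libraries.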

Additional observations from a re-analysis of the deposited data

Results flagged for a closer look

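For 14 members the response to the control medium (control against untreated cells) differed between KO and WT cells by a test of the difference itself, the interaction term in limma. The difference (KO response minus WT response, log2) was positive for Atp6v0a1 (0.82), Lipa (0.72), Smpd1 (0.68), Atp6v1b2 (0.51), Gusb (0.44) and Asah1 (0.31). It was negative for Lamp2 (-0.96), Atp6v1e1 (-0.74), Atp6v1d (-0.62), Gla (-0.51), Grn (-0.50), Scarb2 (-0.45), Atp6v0b (-0.40) and Atp6v1h (-0.28). Of all genes, 45.7% were called by this test. With totals alone Scarb2, Atp6v0b and Atp6v1h turned positive, and Gla and Grn came to -0.01 each. With totals alone the call of Atp6v1d was lost, and with the deposited scaling that of Gusb. The calls of Asah1 and Scarb2 were lost without single libraries, as given above, and so were those of Gla, Atp6v0b and Atp6v1h. For Gla the limma adjusted p was 0.116 without KO control 1, 0.113 without WT control 2, 0.102 without KO untreated 2 and 0.0973 without WT untreated 1. For Atp6v0b it was 0.0547 to 0.145 without KO control 2, WT control 2, KO untreated 1 or either WT untreated library, and for Atp6v1h 0.0556 to 0.0873 without either KO control library, WT control 2 or either KO untreated library.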

How the results depend on the processing

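The scaling mattered most. With totals alone 72 of 245 member values changed sign, and 65 of these were called before or after the change. The other alternatives gave 110 sign changes, of which 0 involved a call. Of the 65, those for KO against WT control cells were Lamp1 0.38, Cd68 0.32, Scarb2 0.15, Ppt1 0.35, Gaa 0.35, Atp6v0b 0.000843, Atp6v0c 0.0495, Atp6v0d1 0.21, Atp6v0e 0.30, Atp6v1c1 0.45, Atp6v1f 0.20, Atp6v1h 0.19, Atp6ap1 0.44 and Atp6ap2 0.34. For WT control against WT untreated cells these were Lamp1 -0.46, Gla -0.18, Grn -0.0649, Atp6v0c -0.17, Atp6v0d1 -0.36, Atp6v0e -0.29, Atp6v1b2 -0.48, Atp6v1c1 -0.52, Atp6v1d -0.0185, Atp6v1f -0.34, Atp6v1h -0.16, Atp6ap1 -0.49 and Atp6ap2 -0.45. Among response differences, those called before or after were Lamp1 0.30, Cd63 0.41, Scarb2 0.0458, Mcoln1 0.47, Ppt1 0.35, Tpp1 0.49, Atp6v0b 0.10, Atp6v0e 0.25, Atp6v1c1 0.49, Atp6v1h 0.21 and Atp6ap1 0.43. For KO Poly(I:C) against KO control cells these were Lamp1 -0.45, Cd63 -0.51, Cd68 -0.42, Scarb2 -0.11, Glb1 -0.69, Psap -0.70, Ppt1 -0.54, Gaa -0.69, Atp6v0b -0.0120, Atp6v0c -0.19, Atp6v0d1 -0.49, Atp6v0e -0.37, Atp6v1c1 -0.64, Atp6v1f -0.28, Atp6v1h -0.31 and Atp6ap2 -0.47. For KO Poly(I:C) against KO untreated cells these were Lamp1 -0.62, Scarb2 -0.71, Atp6v0a1 -0.75, Atp6v0c -0.23, Atp6v0d1 -0.59, Atp6v0e -0.41, Atp6v1b2 -0.48, Atp6v1c1 -0.67, Atp6v1f -0.34, Atp6v1h -0.25 and Atp6ap2 -0.71.

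With totals alone, counts of higher and lower members were 26 and 3 for KO against WT control cells, 2 and 28 for WT control against WT untreated cells, 22 and 2 for the response difference, 3 and 27 for KO Poly(I:C) against KO control cells, and 4 and 28 for KO Poly(I:C) against KO untreated cells. All genes moved the same way, with 7672 and 2077, 2267 and 7689, 6518 and 1695, 2081 and 8882, and 2218 and 8703 calls of 13171. With the deposited scaling the lower calls numbered 19, 5, 13, 5 and 5 in the same order, and 3 for KO control against KO untreated cells. In the fit of the compared groups alone, 6 members were higher in WT control than in WT untreated cells. Leaving out each library in turn gave 6 to 10 higher and 5 to 12 lower for WT control against WT untreated cells, 2 to 4 higher and 1 to 7 lower for KO control against KO untreated cells, 5 to 8 positive and 4 to 10 negative response differences, 7 to 11 higher and 8 to 12 lower for KO against WT control cells, 12 to 17 higher and 7 to 9 lower for KO Poly(I:C) against KO control cells, and 10 to 12 higher and 7 to 10 lower against KO untreated cells. In each of these comparisons, calls over all genes also became fewer when a library of the compared groups was left out. Where a library left an arm with 1 sample, that sample was assumed to vary like the other groups. KO against WT untreated cells gave 0 member calls under every alternative.

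With the replicate number as a block, 15 members were lower in WT control than in WT untreated cells, where 9 were without it, and no other count of members moved by over 1.5 times. Among all genes the block gave 27 higher and 72 lower between untreated genotypes (11 and 11 without it). The labels give the numbers no shared origin, and same-numbered libraries of different groups deviated together with correlations of 0.0128 to 0.315, and the 4 correlations between groups of one genotype were 0.171 to 0.315. Between groups of different genotypes the correlations were 0.0128 to 0.111. The block was a single term shared by both genotypes, so it could not model a pairing within each genotype. With 2 pairs a comparison the numbers were not taken to pair the libraries. As the signal was scaled, the depth in reads is unknown.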
